A study of Drosophila melanogaster with 24 samples.

Results

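Genes of the proteasome were taken by symbol, as every gene named Rpn, Rpt, Prosalpha or Prosbeta with a subunit number in the probe set annotation. The rule found 40 genes among 11982 with a probe set that names a single gene, and each of the 40 had 1 such probe set. By their symbols 26 are standard subunits and 14 are paralogues written with R or T after the subunit number, here called testis-type. The label fitted the values of 13 of these 14, which lay at or near background, while Rpt3R was well above it. A probe set that names Prosalpha1 and Prosalpha1R together was left out by the rule, and other subunits are not analysed here.

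The proteasome is the protease complex that degrades proteins tagged with ubiquitin. Its core particle is a barrel of alpha rings, which gate the entrance, and beta rings, which hold the catalytic sites. The regulatory particle caps the barrel: the Rpt ATPases of its base unfold substrates, the Rpn subunits of base and lid bind ubiquitin, hold the parts together and remove the ubiquitin chain. Every cell needs the complex, and Drosophila males make further core and cap subunits from duplicated genes in the testis.

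The study mixed pairs of populations of S2 cells, a hemocyte-like Drosophila line, for 45 minutes and measured total RNA of both populations together on expression arrays. A mix is written with a slash between its populations. The line Dl expresses Delta, a ligand of the receptor Notch, and DlDI expresses a Delta without the intracellular part. NFull and NDCterm are the names of what the other lines express, which the labels do not spell out. In all 8 mixes both populations are S2 cells or lines made from them, and each replicate pooled 2 independent samples. A source label gives epidermal tissue of late embryos, against the S2 cells of the design. How many clones a line represents and what drives its transgene are missing from the labels. Of 24 arrays, 8 were left out because they share a title with an array that differs from them. Among these 8, an array titled as a mix with Dl had a Delta signal of 13.9, and 2 titled as mixes with DlDI had 12295 and 11031. Results rest on 15 samples. S2/S2 and S2/S2-Dl have 3 each. The mixes S2/S2-NDCterm, S2-NDCterm/S2-Dl and S2/S2-DlDI have 2 each. The 3 mixes with NFull have 1 each, so their spread is taken from the mixes with replicates, as if it were equal.

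Values are the authors' probe set signals, in array units, scaled to the same trimmed mean on every array. Changes are differences of log2(signal + 32), tested with limma over 18769 probe sets. A gene is called where the p adjusted over all of them (Benjamini-Hochberg) is below 0.05. Of 11 plasmatocyte markers 9, 7 and 7 had a signal above 100 in S2/S2 replicates 1, 2 and 3. Among these 11, Hml (0.544 to 18.0) and Sr-CI (0.681 to 3.33) were near background in all 3, and He and NimC1 were above 100 only in replicate 1. The samples with a Dl line had Delta signals of 11069.6 to 12968, and the others, mixes with DlDI included, at most 41.3. Signals of different probe sets do not measure amounts on one scale, so genes are not ranked by level.

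The standard subunits were all measured far above background. Their 390 values, 26 genes in 15 samples, ran from 543 to 3312, and none was below the median of its array (10.3 to 20.96). In the alpha ring, Prosalpha2 ran from 1649 over a median of 2169 to 2437, Prosalpha3 from 1113 over 1566 to 1811, and Prosalpha6 from 1166 over 1383 to 1768. Among beta subunits, Prosbeta5, which carries the chymotrypsin-like site, ran from 2067 over 2575 to 3312, and Prosbeta2, which carries the trypsin-like site, from 1336 over 2046 to 2866. In the cap, the ATPase Rpt5 ran from 727 over 1085 to 1196, and the lid deubiquitinase Rpn11 from 907 over 1084 to 1260.1. The highest sample exceeded the lowest by 1.27-fold in Prosbeta6 to 2.53-fold in Rpn13, with a median of 1.61-fold over the 26 genes.

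The other members of each part of the complex had ranges of the same order. In the alpha ring Prosalpha4 ran from 863 to 1204, Prosalpha5 from 941 to 1588 and Prosalpha7 from 1032 to 1665. In the beta ring the structural subunits Prosbeta3, Prosbeta4, Prosbeta6 and Prosbeta7 ran from 1633 to 2670.3, 1884 to 2855, 1748 to 2214 and 1862 to 2886. Among the ATPases, which form a ring on the core and pull substrates in, Rpt2 ran from 656 to 1106, Rpt3 from 839 to 1217 and Rpt4 from 938 to 1376. Rpn1, the base subunit that docks ubiquitin shuttles, ran from 561 to 891. In the lid Rpn3 ran from 628 to 940.3, Rpn5 from 1212 to 2163, Rpn6 from 1270.3 to 2067, Rpn8, the partner of Rpn11, from 571 to 1080.0, and Rpn12 from 979 to 1575. The spread between samples of a mix (residual SD of log2 values) had a median of 0.193 over the 26 genes, against 0.161 over 1674 single-gene probe sets with a mean signal above 500. It was smallest for Rpn11 (0.0733) and largest for Rpn7 (0.339), both of the lid. Between mixes, the highest mean exceeded the lowest by a median of 1.38-fold.

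**Figure D1:**
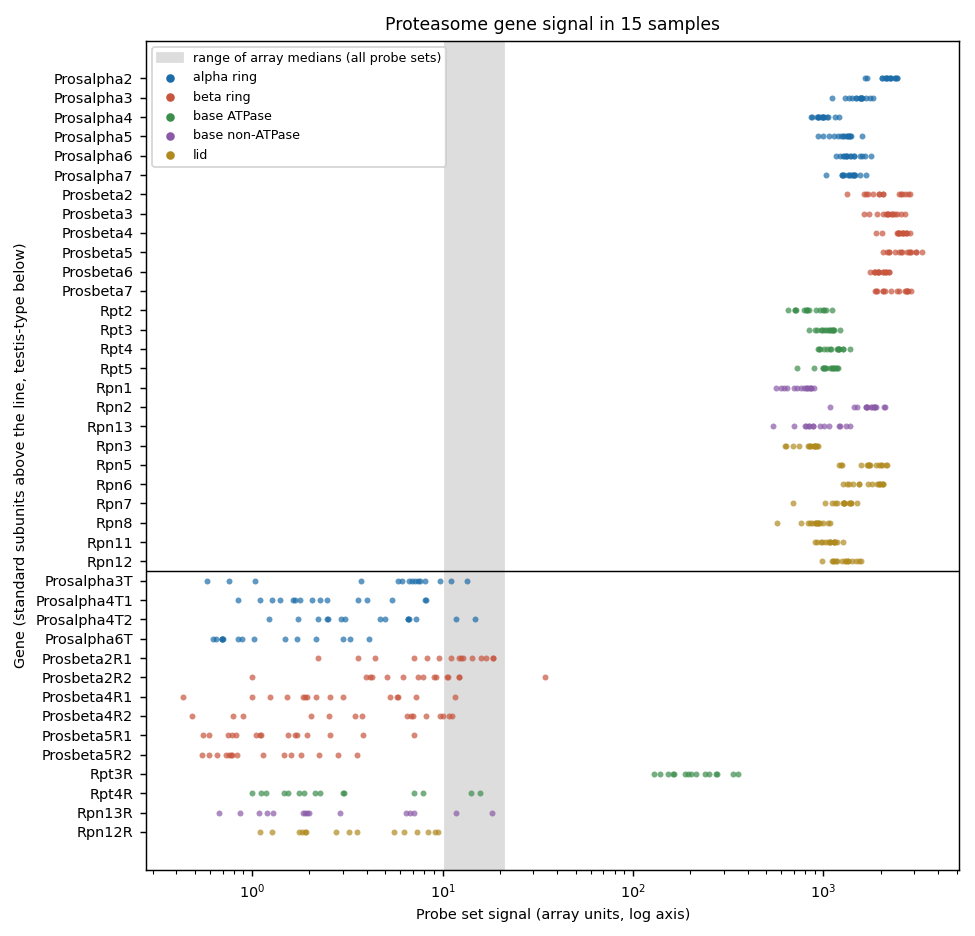
Signal of 40 proteasome genes in 15 samples, 1 point per sample on a log axis, coloured by the part of the complex. The standard subunits lie between 543 and 3312, 13 testis-type paralogues lie at or near the grey range of array medians, and Rpt3R lies between 128.3 and 358.

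The testis-type paralogues fell into a group at background and a single expressed gene. Over 13 of them, all except Rpt3R, 177 of 195 values lay below the median of their array and none reached 100. The highest was 34.5 for Prosbeta2R2, in S2/S2 replicate 2, the array with the highest median signal. Of these genes 6 are beta subunit copies (Prosbeta2R1, Prosbeta2R2, Prosbeta4R1, Prosbeta4R2, Prosbeta5R1 and Prosbeta5R2), and Prosbeta5R2, for example, ran from 0.542 to 3.55. Their alpha counterparts Prosalpha3T, Prosalpha4T1, Prosalpha4T2 and Prosalpha6T stayed at 14.9 or lower. The cap copies Rpt4R, Rpn12R and Rpn13R had highest signals of 15.6, 9.46 and 18.3. Testis markers were low in the same RNA: in S2/S2, 13 of 19 had a mean signal below 10 and 1, mia, a factor of the spermatocyte transcription programme, was above 100 (164). Their summed signal was 237 to 365 over the 15 samples.

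Rpt3R, a copy of the ATPase gene Rpt3, was above 100 in 15 of 15 samples. Its signal was 334, 194 and 215 in S2/S2, 358, 274 and 277 in S2/S2-Dl, and 152 and 163 in S2/S2-DlDI. It was 128.3 and 164 in S2/S2-NDCterm, 188 and 138 in S2-NDCterm/S2-Dl, 252 in S2-NFull/S2, 238 in S2-NFull/S2-Dl and 201 in S2-NFull/S2-DlDI. The mixes with DlDI or NDCterm beside S2 cells lay below every S2/S2 sample, and S2/S2-Dl overlapped S2/S2. None of these differences passed over all probe sets with limma. The log2 change was -0.63 ± 0.20 (SE, adjusted p = 0.34) in S2/S2-NDCterm and -0.53 ± 0.20 (adjusted p = 0.593) in S2/S2-DlDI, each against S2/S2. The difference of S2/S2-Dl from S2/S2-DlDI was 0.81 ± 0.20 (adjusted p = 0.115). The gene itself, Rpt3, was at 839 to 1217 and had log2 changes of 0.03 in S2/S2-Dl and 0.26 in S2/S2-DlDI.

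S2/S2 replicate 1 stood apart for the standard subunits, and this sample enters every comparison with S2/S2. Of the 26 genes 20 had their lowest signal of 15 samples there. The median deviation of the 26 from their own means was -0.39 on the log2 scale in that sample. Among all 1674 single-gene probe sets with a mean signal above 500, the share with the lowest value there was 23.4%, and the median deviation was -0.05. Rpn7, a lid scaffold, was at 691 there against 1388 and 1510 in the other S2/S2 replicates, and Rpn2, the large scaffold of the base, at 1083 against 1885 and 2115. S2/S2-Dl replicate 1 came next, with 24 of 26 genes below their mean and a median deviation of -0.22. Some of the blood cell markers also stood apart in these 2 samples, He and NimC1 with high signals and Pxn with low ones. He was at 548 in S2/S2 replicate 1 and 361 in S2/S2-Dl replicate 1, against 38.3 to 76.8 in the other 13 samples. NimC1, a phagocytosis receptor, was at 154 and 89.9, against 2.07 to 29.2. Pxn was at 306 and 318, against 511 to 1875 in the other 13 samples. The summed signal of the 11 plasmatocyte markers in S2/S2 replicate 1, 3404, was the lowest of the 15 samples. In S2/S2-Dl replicate 1 the sum was 4506, against 4441 and 4632 in the other S2/S2-Dl replicates. The part of these markers in the proteasome values was not tested.

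**Figure D2:**
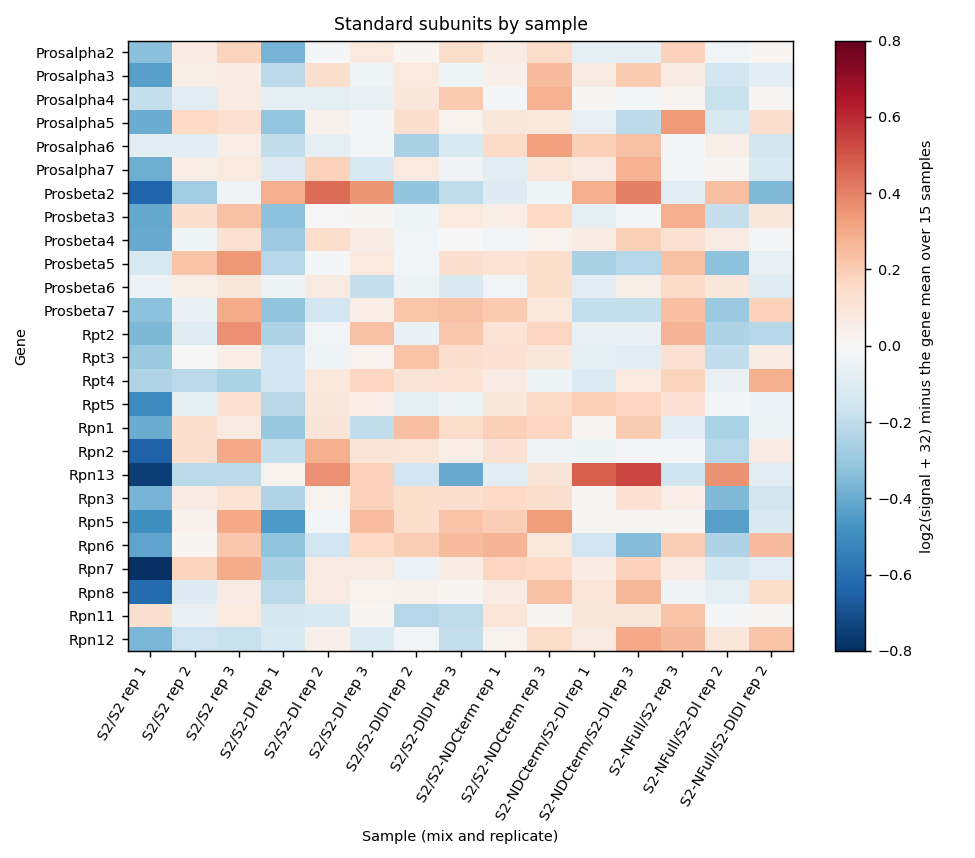
Each of 26 standard subunits (rows) in 15 samples (columns), as log2(signal + 32) minus the gene's mean over the samples. The column of S2/S2 replicate 1 is low in 25 of 26 genes, and the row of Prosbeta2 is high in the mixes with the Dl line. The row of Rpn13 has a similar order with overlap: S2/S2-Dl replicate 1 (959) lies below S2/S2-NDCterm replicate 3 (1012).

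With Dl cells beside plain S2 cells 1 proteasome gene, Prosbeta2, rose past the test. Its signal was 2573, 2866 and 2684 in S2/S2-Dl against 1336, 1723 and 2051 in S2/S2. The groups did not overlap, where 5.6% of all probe sets were higher in this way. The log2 change was 0.68 ± 0.13 (SE, limma adjusted p = 0.0228, n = 3 and 3). This was 1 of 40 genes called higher, where 1.11% of all probe sets were, and 0 were called lower, against 0.197% (1.31% in either direction). At an unadjusted p below 0.05 there were 3 higher and 0 lower, beside 12.2% of all probe sets. RNA of 2 populations was measured together, and fewer cells of a type and less RNA per cell cannot be told apart. A level that the Dl line has by itself also cannot be told apart from an answer to contact.

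Rpn13, a ubiquitin receptor of the base that in mammals also anchors a deubiquitinase, had a change of similar size that missed the threshold. It was at 959, 1219.6 and 1071 in S2/S2-Dl against 543, 803 and 806 in S2/S2, again without overlap (log2 change 0.59 ± 0.15 SE, limma adjusted p = 0.08). The lowest of these values, 543, is that of S2/S2 replicate 1. Over 15 settings of the processing the log2 change of Rpn13 ran from 0.41 to 0.68, with a limma adjusted p of 0.00632 to 0.335. The titles number the replicates, which does not by itself show that same-numbered samples were handled together. Residuals of same-numbered S2/S2 and S2/S2-Dl samples correlated at 0.506, 0.272 and 0.377. Those of S2/S2-Dl and S2/S2-NDCterm correlated at 0.00295 and -0.0455. Fitted in limma with the replicate number as a block over all mixes, both genes passed. Prosbeta2 had an adjusted p of 0.00513 and Rpn13 one of 0.00632, while 2.88% of all probe sets were called. Rpt4, an ATPase of the base, was next by p with 0.27 ± 0.10 (adjusted p = 0.293). The call of Prosbeta2 needed most of the samples: without S2/S2-Dl replicate 1, 2 or 3 its adjusted p was 0.062, 0.141 or 0.0717, and without S2/S2 replicate 2 it was 0.0529. The log2 change of Prosbeta2 was 0.64 without S2/S2-Dl replicate 2, and over 15 settings of the processing it ran from 0.52 to 0.82.

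The remaining 24 standard subunits showed no call in S2/S2-Dl. The median of all 26, Prosbeta2 and Rpn13 included, was near that of all probe sets. The median log2 change over the 40 genes was 0.00 (0.02 over the 26 standard genes), beside -0.05 over all probe sets, and 14 of 26 were positive. Over single-gene probe sets with a mean signal above 500 it was 0.01, with 51.9% positive. By part of the complex the medians were -0.03 for 6 alpha subunits, -0.09 for 6 beta subunits, 0.08 for 4 ATPases, 0.13 for 3 other base subunits and 0.06 for 7 lid subunits. Prosbeta5 had the lowest change, -0.20 ± 0.13. The 95% intervals of the 25 uncalled standard genes lay between -0.48 and 0.91, so each of them lay within 1 of zero on the log2 scale. Without S2/S2 replicate 1 only 4 of 26 were positive, and the median was -0.09.

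Prosbeta2 was also higher in the other mixes with Dl cells, without passing the test. Beside NDCterm cells it was at 2569.8 and 2780.1 with Dl cells against 1950.4 and 2046 without (log2 change 0.41 ± 0.16 SE, limma adjusted p = 0.516, n = 2 and 2). Beside NFull cells it was at 2484 with Dl against 1967 without (0.33 ± 0.23 SE), and the mix with DlDI was at 1633. Over the whole series the 6 samples with a Dl line held 2484 to 2866 and the 9 others 1336 to 2051. Prosbeta2 was the only 1 of 40 genes whose ranges did not overlap in this view, which was chosen after its values were seen, against 0.975% of all probe sets higher in this way and 0.266% lower.

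Rpn13 followed the same order with more spread. It was at 1319 and 1375 in S2-NDCterm/S2-Dl against 885 and 1012 in S2/S2-NDCterm (log2 change 0.50 ± 0.18 SE, limma adjusted p = 0.446). With NFull cells it was at 1212 beside Dl, 837 beside S2 and 884 beside DlDI (0.52 against S2-NFull/S2, adjusted p = 0.559). The samples with a Dl line ran from 959 to 1375 and the others from 543 to 1012, so that S2/S2-NDCterm replicate 3 lay above S2/S2-Dl replicate 1.

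The Gapdh signal at the 3' end over that at the 5' end, a measure of RNA integrity and labelling, also differed between these mixes. It was 1.95, 1.74 and 2.82 in S2/S2-Dl, 1.46 in S2-NFull/S2-Dl and 1.58 and 1.57 in S2-NDCterm/S2-Dl, against 2.71, 2.77 and 2.97 in S2/S2 and 1.87 to 3.13 in the other mixes without Dl. In the same order of S2/S2-Dl replicates, Prosbeta2 was at 2573, 2866 and 2684 and Rpn13 at 959, 1219.6 and 1071. S2/S2-NDCterm replicates 1 and 3, with ratios of 2.41 and 1.87, had Prosbeta2 at 1950.4 and 2046. Rpn13 was at 885 and 1012 in these. The summed signal of 11 plasmatocyte markers was 4441 to 4632 in S2/S2-Dl and 3404 to 4597 in S2/S2. Of the 11, 3 were higher in S2/S2-Dl without overlap and 0 lower, where 5.6% of all probe sets were higher and 8.45% lower in this way: the blood cell factor srp (722 to 934 against 577 to 620.0), the receptor crq (399 to 545 against 242 to 349.7) and the collagen Col4a1 (722 to 872 against 462 to 685). The part of these measures in the results was not tested.

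**Figure D3:**
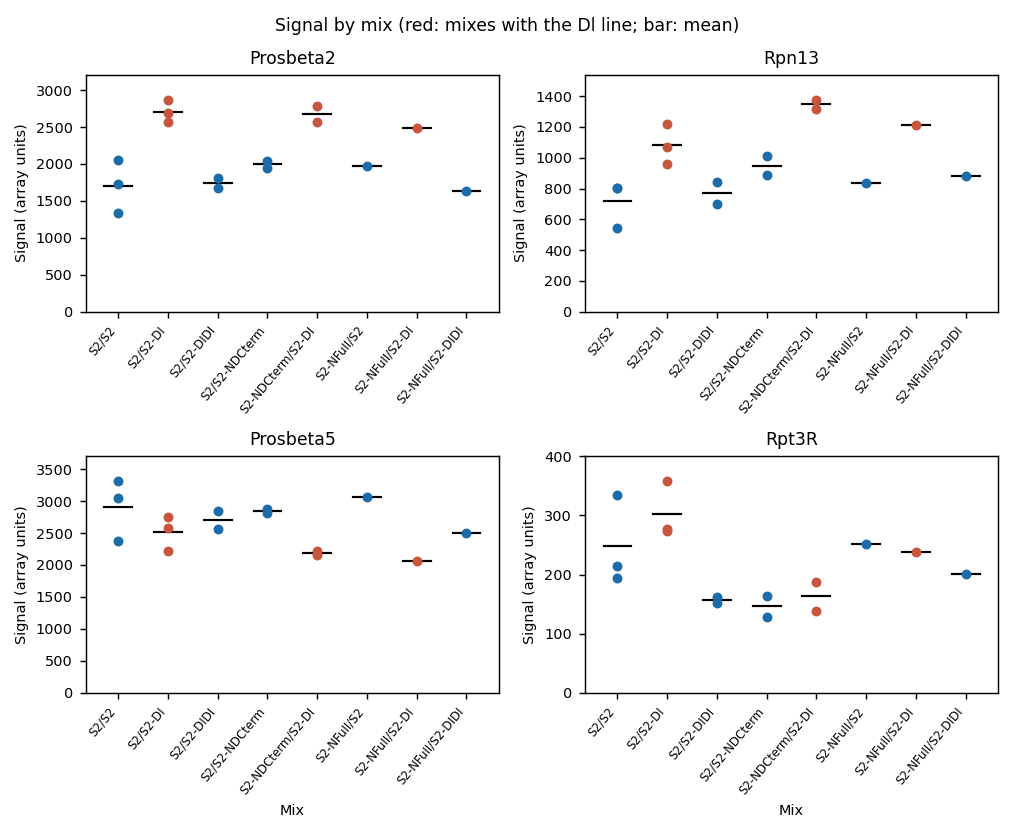
Signal of 4 proteasome genes in each mix, 1 point per sample with the mean as a bar, mixes with the Dl line in red. Prosbeta2 lies at 2484 to 2866 in the red mixes and at 1336 to 2051 in the others, and Rpn13 has a similar order with overlap. Prosbeta5 lies at 2067 to 2746 in red and at 2381 to 3312 in the others, which overlap.

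Prosbeta5, whose product sits in the same ring as Prosbeta2, had a lower mean with Dl cells in all 3 settings. So did Prosbeta3, Prosbeta6, Prosbeta7, Prosalpha2, Prosalpha4, Prosalpha5, Rpn1, Rpn5, Rpn6 and Rpn7, the last only just beside S2 cells (1195.5 against 1196.5). The other standard subunits did not. Of single-gene probe sets with a mean signal above 500, 51.9%, 41.5% and 40.6% were positive beside S2, NDCterm and NFull cells. The share of them lower in all 3 settings was not counted. Prosbeta5 was at 2218, 2575 and 2746 in S2/S2-Dl against 2381, 3048 and 3312 in S2/S2, which overlap. It was at 2163 and 2212 in S2-NDCterm/S2-Dl against 2812 and 2874 in S2/S2-NDCterm (log2 change -0.37 ± 0.16 SE, limma adjusted p = 0.565) and at 2067 in S2-NFull/S2-Dl against 3058 in S2-NFull/S2 (-0.56 ± 0.22, adjusted p = 0.439). Prosbeta7, a structural beta subunit, was at 1903 in S2-NFull/S2-Dl against 2774 (-0.54, adjusted p = 0.525). No change of these genes passed.

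When Dl cells took the place of S2 cells beside NDCterm cells, 0 of 40 genes were called with limma, where 0.49% of all probe sets were. At an unadjusted p below 0.05 there were 2 higher (Rpn13 and Prosbeta2) and 2 lower (Prosbeta5 and Rpn6, the lid subunit that in yeast clamps the cap to the core), beside 7.63% of all probe sets in either direction. The median over the 26 standard genes was -0.07, with 8 positive, against 0.01 over all probe sets. Over single-gene probe sets with a mean signal above 500 it was -0.05, with 41.5% positive. Beside NFull cells (n = 1 and 1) 0 of 40 were called, where 0.293% of all probe sets were. At an unadjusted p below 0.05 there were 1 higher, Rpn13R, which went from 1.29 to 18.3 and so stayed near background, and 1 lower, Prosbeta5, beside 9.52% of all probe sets. There 4 of 26 standard genes were positive, with a median of -0.21 against 0.03 over all probe sets. Over single-gene probe sets with a mean signal above 500 it was -0.07, with 40.6% positive. Intervals were wide in that comparison, reaching from -1.16 for Rpn5 to 1.07 for Rpn13.

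**Figure D4:**
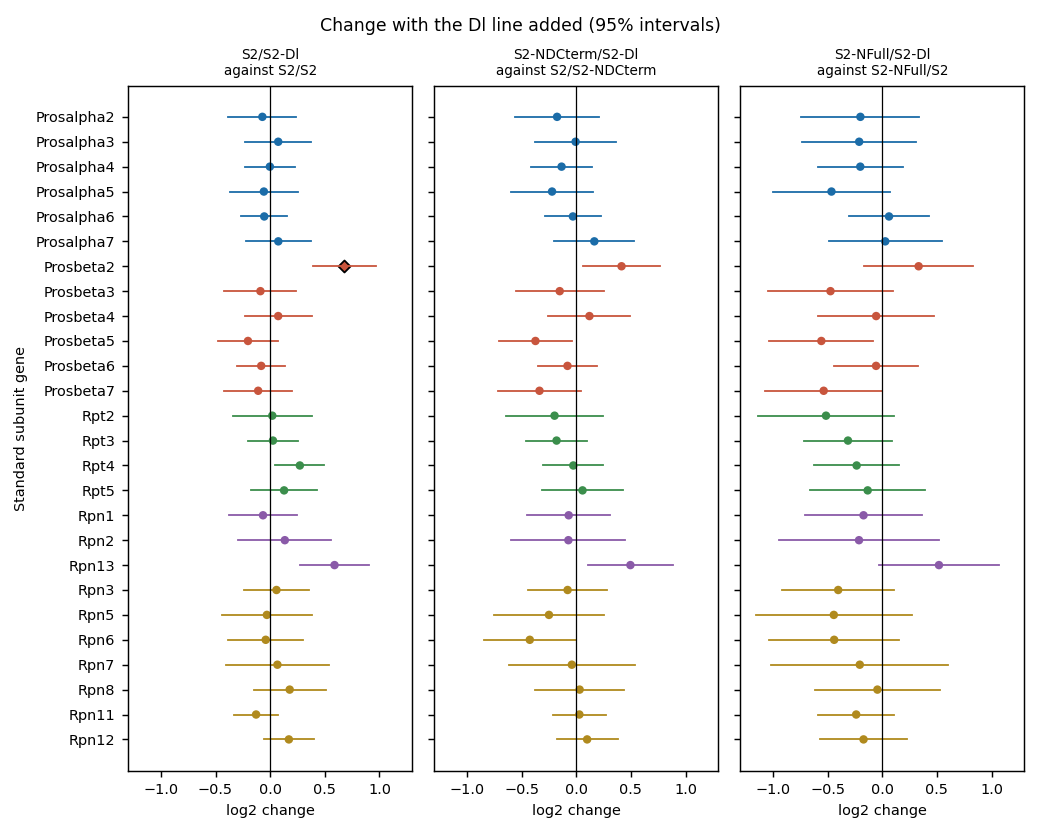
Log2 change (points) with its 95% interval (lines) of each of 26 standard subunits when the Dl line is added beside S2, NDCterm and NFull cells, coloured by part of the complex. The outlined diamond, Prosbeta2 beside S2 cells at 0.68, is the call, and Rpn13 lies at 0.50 to 0.59 in the 3 panels.

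The study's design asks whether the answer to Delta depends on the line beside it, and that difference was tested directly. Beside NDCterm minus beside S2 cells, 0 of 40 genes were called with limma (0.0107% of all probe sets), and 0 had an unadjusted p below 0.05, beside 3.46% of all probe sets. Prosbeta2 had a difference of -0.26. The smallest p belonged to Rpt4 (-0.30 ± 0.16 SE, limma adjusted p = 0.997), followed by Rpn12R (0.27, at background signals) and Rpn6 (-0.38). Beside NFull minus beside S2 cells, 0 of 40 were called (0.0213% of all probe sets), with 1 higher and 1 lower at an unadjusted p below 0.05, beside 5.21% of all probe sets: Rpn13R (0.68, adjusted p = 0.861) and Rpt4 (-0.51 ± 0.21 SE, limma adjusted p = 0.909). Rpn3, a lid subunit, was at -0.46. Of 26 standard genes 5 were positive in the difference beside NDCterm cells (median -0.12) and 2 in that beside NFull cells (median -0.31). Without S2/S2 replicate 1 the counts were 17 (median 0.04) and 8 (median -0.14). The interaction intervals of the standard genes reached from -1.26 to 0.66 beside NFull cells and from -0.93 to 0.63 beside NDCterm cells.

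Delta without its intracellular domain gave no call among the proteasome genes beside S2 cells: 0 of 40 passed with limma, where 0.0746% of all probe sets did. At an unadjusted p below 0.05 there were 3 higher and 2 lower, beside 7.79% of all probe sets. Rpt4 was at 1210 and 1214 in S2/S2-DlDI against 945, 963 and 938 in S2/S2 (log2 change 0.34 ± 0.12 SE, limma adjusted p = 0.569). Rpn11, the deubiquitinase that releases ubiquitin chains at the lid, was at 907 and 925 against a mean of 1108 ± 76.6 (SD, n = 3; -0.26, adjusted p = 0.601). Of 26 standard genes 22 were positive, with a median of 0.12. Of single-gene probe sets with a mean signal above 500, 58.1% were positive, with a median of 0.05. Without S2/S2 replicate 1 the count of standard genes was 10 and their median -0.05.

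In the direct comparison of full against truncated Delta beside S2 cells, 0 of 40 genes were called, where 0.639% of all probe sets were. Prosbeta2 had a log2 difference of 0.62 ± 0.15 (SE, limma adjusted p = 0.1) with means of 2708 ± 148 (SD, n = 3) and 1746 ± 96.6 (n = 2), and Rpn13 one of 0.47 ± 0.17 (adjusted p = 0.35). At an unadjusted p below 0.05 there were 3 higher and 2 lower, beside 8.32% of all probe sets. Prosbeta2 passed after quantile normalization of the arrays (0.67, limma adjusted p = 0.0492). With the replicate block 2 genes passed, Prosbeta2 (0.69, adjusted p = 0.018) and Rpn13 (0.58, adjusted p = 0.0275), where 1.17% of all probe sets did. The same-numbered samples of these mixes, 2 pairs, had residuals that correlated at 0.206 and 0.230. Beside NFull cells the same comparison, with 1 sample each, called 0 of 40 (0.213% of all probe sets), with Prosbeta2 at 0.60 ± 0.23 (adjusted p = 0.569) and Rpn13R at 0.57 as the 2 genes higher at an unadjusted p below 0.05, beside 7.22% of all probe sets. Of 26 standard genes 7 were positive in each of these comparisons. Of single-gene probe sets with a mean signal above 500, 46.3% were positive beside S2 cells and 41.1% beside NFull cells.

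The NDCterm and NFull lines beside plain S2 cells gave higher values for nearly all standard subunits, and no call. In S2/S2-NDCterm 25 of 26 were positive against S2/S2, with a median log2 change of 0.20. The median was -0.05 over all probe sets and 0.07 over single-gene probe sets with a mean signal above 500, of which 60.6% were positive. In this comparison 0 of 40 passed with limma (0.165% of all probe sets). At an unadjusted p below 0.05 there were 3 higher and 1 lower, beside 9.47% of all probe sets. Rpn12, a lid subunit, was at 1295 and 1414 against 979, 1131 and 1120 (0.32 ± 0.12 SE, limma adjusted p = 0.398). Prosalpha6 was at 1558 and 1768 against 1313 to 1455 (0.28, adjusted p = 0.439), and Rpn13 had a log2 change of 0.41 (adjusted p = 0.46). In S2-NFull/S2 (n = 1) 25 of 26 were again positive, with a median of 0.19 (0.05 over the probe sets above 500, 57.8% of them positive), and 0 of 40 passed (0.181% of all probe sets). Rpn12 was at 1530.0 there (0.50 ± 0.15 SE, adjusted p = 0.451), Rpt4 at 1274 (0.41, adjusted p = 0.602) and Prosalpha5 at 1588 (0.38, adjusted p = 0.774), with 2 genes higher and 0 lower at an unadjusted p below 0.05, beside 6.84% of all probe sets. Both comparisons use the same S2/S2 samples. Without S2/S2 replicate 1 the positive counts were 17 and 18 of 26, with medians of 0.06 in each.

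Truncated Delta beside NFull cells, with 1 sample on each side, gave 0 of 40 calls with limma (0.0213% of all probe sets) and 0 genes at an unadjusted p below 0.05, beside 3.5% of all probe sets. Of 26 standard genes 6 were positive, with a median of -0.13, beside 46.4% and -0.02 over single-gene probe sets with a mean signal above 500. Rpt2, an ATPase of the base, was lowest at -0.50 ± 0.29 (SE), followed in p by Prosbeta6 (-0.25) and Rpn11 (-0.22).

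Other genes of the ubiquitin pathway gave a single call. Of 50 listed 41 were measured, among them ubiquitin genes, conjugating enzymes, ligase parts, shuttle factors, deubiquitinases, activators and regulators, and their median signal in S2/S2 was 6128 for 4 ubiquitin genes and 214 for ligase parts. Across the 11 comparisons the list had 1 call: Cul1, the scaffold of SCF ubiquitin ligases, fell in S2/S2-Dl. Its signal was 796, 736 and 835 against 1025, 1089 and 1088 in S2/S2, without overlap, where 8.45% of all probe sets were lower in this way. The log2 change was -0.42 ± 0.09 (SE, limma adjusted p = 0.0394), with 1 of 41 called lower where 0.197% of all probe sets were. Its call was lost without S2/S2-Dl replicate 1, 2 or 3 (adjusted p 0.118, 0.224 and 0.0641) and without S2/S2 replicate 2 or 3 (0.0732 and 0.0721). In S2-NDCterm/S2-Dl it was at 639 and 623 against 944 and 911 without Dl cells (adjusted p = 0.0625). maf-S, partner of the factor that activates proteasome genes in flies under stress, was at -0.39 in S2/S2-Dl (adjusted p = 0.0881), and the polyubiquitin gene Ubi-p63E at 0.43 (adjusted p = 0.0899).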

How the data were processed

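The deposited table holds 1 signal per probe set for each of 24 arrays, a linear intensity. The 2%-trimmed mean was 150 on every array, so the authors' scaling was kept. No label or header names the summary software. Of 18952 probe sets 183 controls were left out and none was filtered. Genes were named from the platform annotation, and 40 of 40 proteasome symbols were found in the RefSeq table of Release 6.

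On 5 occasions 2 arrays bore the same title. A pair was averaged only if the SD of its log2 difference was over the brighter probe sets was below the lowest of 9 pairs of separate replicates (0.213). It was 0.126 for S2-NFull/S2-DlDI replicate 2 and 0.340 to 0.384 for the rest, whose 8 arrays were left out. No array was moved to another mix.

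With limma 3.58.1 (R 4.3.3), 1 linear model with a mean trend covered 8 mixes and 11 comparisons (7 residual degrees of freedom). Adjusted p values are over all probe sets of a comparison. P values measure the spread between pooled replicates. Residuals of same-numbered S2/S2 and S2/S2-Dl samples correlated at 0.506, 0.272 and 0.377, and the numbers come from the titles, so the block is given there. The number of arrays limits the precision. The fit was tested on simulated data. Alternatives were quantile normalization, other offsets, a filter on low values, no trend, all shared titles averaged, probe set means, the block and leaving out each replicate.

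The members and lists were chosen with earlier results of these data known. Named per comparison were called genes, or the 3 smallest p values where fewer than 3 were called, and further genes are given as values.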

Additional observations from a re-analysis of the deposited data

Results flagged for a closer look

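Prosbeta2, the proteasome gene called in S2/S2-Dl, had signals above every S2/S2 sample (highest 2051) on 3 of the 8 arrays left out for a shared title. They were 3018 on array 1 of S2-NDCterm/S2-Dl replicate 2, 2531 on array 1 of S2-NFull/S2-DlDI replicate 1 and 2700.0 on array 1 of S2-NFull/S2-DlDI replicate 3. The Delta signals of these arrays were 11382, 12295 and 11031. On the other 5 left-out arrays Prosbeta2 was at 1280.2 to 1872 and Delta at 1.67 to 156. Prosbeta2 was examined there because of its call, and the share of all probe sets split in this way was not counted. Rpn13 was split in the same way, with its values given below. No array was given another label because of these values. Neither direct test of a difference between Delta effects flagged a proteasome gene. No mix held enough samples for a formal search for a sample far from its group. S2/S2 replicate 1, where 20 of 26 standard subunits were lowest, is described above.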

How the results depend on the processing

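Members called in S2/S2-Dl against S2/S2 were 1, and 2 with all shared titles averaged or with the replicate block, and 0 to 1 with 1 sample left out. In S2/S2-Dl against S2/S2-DlDI 0 were called, 1 after quantile normalization, 1 (Rpt3R, adjusted p = 0.0428) with shared titles averaged, and 2 (Prosbeta2 and Rpn13) with the block. The block also called Rpn13 (0.50, adjusted p = 0.0498) in S2/S2-NDCterm against S2/S2, where same-numbered residuals correlated at 0.0337 and 0.0402. The cause was not tested. The block changed no other call of a proteasome gene. With low values filtered, which leaves mostly standard genes, the median in the difference of Delta effects beside NFull minus beside S2 was -0.31 in place of -0.16. With 1 sample left out, the median ran from -0.0525 to 0.20 in S2/S2-DlDI against S2/S2 and from -0.16 to 0.0489 in the difference of Delta effects beside NDCterm minus beside S2, where -0.0525 and 0.0489 are without S2/S2 replicate 1. No named gene turned its direction under any alternative run. Each gene had 1 probe set, so averaging probe sets changed nothing. Mixes with 1 sample could not be left out. Leaving out replicate 1 of S2/S2 and S2/S2-Dl together, added after seeing the data, gave Prosbeta2 a log2 change of 0.55 (limma adjusted p = 0.0385) and Cul1 one of -0.46, no longer called (adjusted p = 0.0621).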

Other observations

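The probe set that names both Prosalpha1 and Prosalpha1R, which cannot tell the standard alpha subunit from its copy, had a signal of 3868 to 6010 over the 15 samples. It was lowest in S2/S2 replicate 1, as were 20 of the 26 standard subunits, and was at 4148, 5077 and 4989 in S2/S2-Dl. On the left-out arrays with Delta signals of 11382, 12295 and 11031, Rpn13 was at 1328, 1048 and 1200. On the other left-out arrays it was at 634 to 909. Rpt3R was at 136 to 324 on the 8 left-out arrays, with overlap between these groups.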
